A study of Homo sapiens with 4 samples.

Results

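The H/ACA small nucleolar RNAs (SNORA symbols) and the small Cajal body RNAs (SCARNA symbols) were examined in TIA1 immunoprecipitates and total RNA of KYSE180, an established human esophageal squamous carcinoma cell line. Members were all non-control probes whose accession maps to a symbol starting with SNORA or SCARNA. This rule gave 126 probes for 123 symbols, 101 SNORA and 22 SCARNA, of 24154 symbols on the array. A symbol was measured where one of its probes stood well above background on both TIA1 RIP or on both total RNA arrays, which left 91 members, 76 SNORA and 15 SCARNA, among 13039 genes.

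TIA1 is an RNA-binding protein of the nucleus and cytoplasm, and the study asked which transcripts it binds in esophageal cancer cells. In the TIA1 RIP group, RNA was recovered with an anti-TIA1 antibody from cytoplasmic lysates of untreated KYSE180 cells. The total RNA group is the RNA of the same cell line before precipitation, and the sources used here do not state whether it came from the cytoplasmic lysate or from whole cells. Each group has 2 one-colour Agilent arrays, and nothing states that they came from separate cultures, so p-values measure only the spread between these arrays. Control precipitates with nonspecific IgG were not analysed here, so precipitation by TIA1 and by the beads cannot be told apart.

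H/ACA RNAs fold into a pair of hairpins joined by a hinge (the H box) and end with an ACA triplet. With 4 core proteins, dyskerin, NOP10, NHP2 and GAR1, they guide the change of uridine to pseudouridine. SNORA members guide it mainly in ribosomal RNA in the nucleolus, and SCARNA members act on spliceosomal RNAs in the Cajal body, where a CAB box (UGAG) helps to hold H/ACA ones. Some SCARNA are C/D box RNAs, which guide ribose methylation, or carry both kinds of domain. Nearly all are cut from introns of host genes, and the mature RNAs carry no poly(A) tail, while the labelling kit used here primes from poly(A).

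On GRCh37, 96 of the 123 members could be placed in the GENCODE annotation, 95 in an intron and 1 over an exon of a gene on the same strand. The other 27 are named without coordinates. The following RNAs are shown because the results turn on them: members with very low ratios of TIA1 RIP to total RNA (SNORA27, SCARNA14, SCARNA18 and SCARNA22), the brightest member (SNORA57), a pair with unlike values from 1 host gene (SNORA25 and SNORA8), and close copies near the other end of the range (SNORA71C and SNORA71D). They are written as DNA, 5′ to 3′, with the last ACA within 5 bases of the 3′ end in capitals and, in SCARNA, each TGAG (the CAB box letters) too.
SNORA27: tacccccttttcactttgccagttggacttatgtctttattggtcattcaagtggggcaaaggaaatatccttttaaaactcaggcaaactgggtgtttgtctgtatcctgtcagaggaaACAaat
SNORA57: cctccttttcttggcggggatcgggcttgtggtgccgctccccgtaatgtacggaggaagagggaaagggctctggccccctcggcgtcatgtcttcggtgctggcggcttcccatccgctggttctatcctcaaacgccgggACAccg
SNORA25: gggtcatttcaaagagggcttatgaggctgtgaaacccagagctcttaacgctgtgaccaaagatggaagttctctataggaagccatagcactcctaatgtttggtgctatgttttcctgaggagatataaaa
SNORA8: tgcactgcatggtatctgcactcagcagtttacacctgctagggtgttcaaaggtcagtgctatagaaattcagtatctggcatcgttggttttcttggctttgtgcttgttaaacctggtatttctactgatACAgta
SNORA71C: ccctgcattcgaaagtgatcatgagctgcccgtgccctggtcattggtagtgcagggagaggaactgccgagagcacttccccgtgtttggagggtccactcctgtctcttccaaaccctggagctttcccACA
SNORA71D: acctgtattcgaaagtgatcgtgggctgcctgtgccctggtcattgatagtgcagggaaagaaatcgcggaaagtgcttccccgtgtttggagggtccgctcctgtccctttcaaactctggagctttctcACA
SCARNA18: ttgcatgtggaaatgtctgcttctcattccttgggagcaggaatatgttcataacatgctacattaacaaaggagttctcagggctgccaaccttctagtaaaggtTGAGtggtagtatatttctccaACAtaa
SCARNA22: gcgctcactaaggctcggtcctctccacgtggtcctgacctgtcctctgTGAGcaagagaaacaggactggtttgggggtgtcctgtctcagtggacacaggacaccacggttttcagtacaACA
SCARNA14: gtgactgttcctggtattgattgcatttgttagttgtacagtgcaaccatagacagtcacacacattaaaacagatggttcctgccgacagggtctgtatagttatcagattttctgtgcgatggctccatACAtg

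In GRCh37, SNORA27 lies at chr13:27829538-27829663 on the plus strand in an intron of RPL21, a ribosomal protein gene. SNORA57 lies at chr11:62432894-62433042 on the plus strand in an intron of CSKMT, a methyltransferase gene. SNORA25 (chr11:93463679-93463812) and SNORA8 (chr11:93465527-93465665) lie on the minus strand in introns of TAF1D, which encodes a subunit of an RNA polymerase I factor. SNORA71C (chr20:37058313-37058446) and SNORA71D (chr20:37062508-37062641) lie on the minus strand in introns of SNHG17, a noncoding host gene, and their sequences are 85.8% identical. SCARNA18 lies at chr5:82360023-82360156 on the minus strand in TMEM167A, SCARNA22 at chr4:1976363-1976487 on the plus strand in NSD2, and SCARNA14 at chr15:66639545-66639680 on the minus strand in TIPIN, each in an intron.

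The ACA triplet was found within 5 bases of the 3′ end in 73 of 80 SNORA and 12 of 16 SCARNA sequences, as against 4 and 3 of the windows of equal length just upstream. SNORA25 has no such ACA in its annotated sequence. TGAG occurred on the sense strand, the only one searched, in 11 of 16 SCARNA (68.8%) and 35 of 80 SNORA (43.8%), and in 68.8% and 60% of their upstream windows, so its presence alone does not set SCARNA apart.

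Most members were far lower on the TIA1 RIP arrays than on the total RNA arrays, relative to the 75th percentile of each array. The log2 ratio (mean TIA1 RIP minus mean total RNA) had a median of −3.82 over the 91 members and of −0.04 over all 13039 genes. It was −3.64 for the 76 SNORA and −4.01 for the 15 SCARNA. All 91 fitted ratios were below 0, the highest being −0.04 for SNORA47. Members not well above background on the TIA1 RIP arrays enter these medians at their measured values, and bounds for them are given further on. With scaling to the E1A spike-in RNAs the direction turned, to a member median of 0.99, while the median of all genes became 4.78. Relative to the median gene the members lay at −3.79 under either scaling, as they must, since such scaling shifts all genes of an array alike.

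No member passed in the limma fit across all 13039 genes, in which the background of genes called lower was 0.0%. The lowest Benjamini-Hochberg adjusted p (limma) was 0.590, shared by 25 members. At an unadjusted limma p under 0.05, 75 members (82.4%) were lower, against 4.02% of all genes, and none was higher. Both TIA1 RIP arrays lay below both total RNA arrays for 83 members (91.2%), against 21.7% of all genes. As many members, 83, were below the median gene in all 4 pairs of a TIA1 RIP and a total RNA array, against 21.3% of all genes. Many members were kept only because they were bright in total RNA, 36 being well above background on neither TIA1 RIP array and 11 on 1, and such members had to lie lower in TIA1 RIP, so these counts are descriptions. Of the 41 members detected on all 4 arrays, 31 (75.6%) were lower at an unadjusted limma p under 0.05, against 4.15% of the 9280 genes so detected. In 37 of the 41 (90.2%) the groups lay apart, against 27.3%, and in 37 all 4 pairs lay below the median gene, against 26.9%.

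The total RNA arrays differed from each other more than the TIA1 RIP arrays did. On the scaled log2 axis the member medians were −3.11 and −2.84 on TIA1 RIP replicates 1 and 2, and −0.48 and 1.52 on total RNA replicates 1 and 2. The median gene stayed between 0.49 and 0.56 on all 4. Total RNA replicate 2 was dim, with a 75th percentile signal of 69.9 against 714 to 1514 on the other arrays and 32.0% of spots well above background against 45.7% to 48.3%. Members were higher on total RNA replicate 2 than on replicate 1 in 82 of 91 cases (90.1%), and so were 57.0% of all genes. Among those detected on all arrays, 34 of 41 members and 6251 of 9280 genes were higher. The lowest scaled log2 signal well above background was −3.59 on replicate 1 and −1.12 on replicate 2. An RNA near background on both arrays thus reads higher on replicate 2, and the part of this in the rise of the members was not tested.

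**Figure D1:**
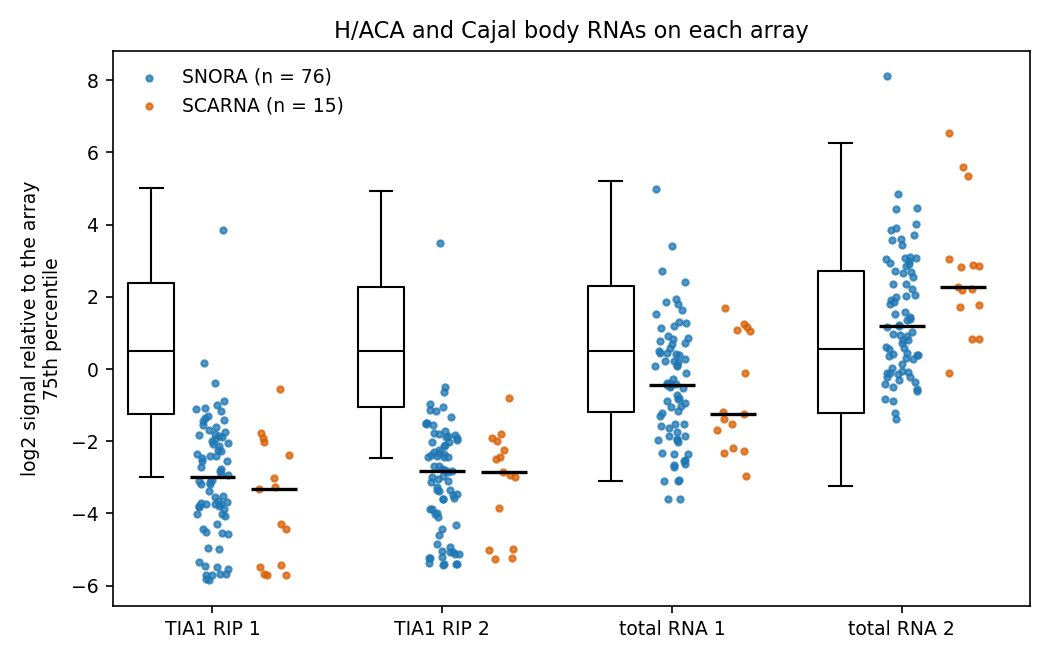
Scaled log2 signal (relative to the 75th percentile of the array) of 76 SNORA and 15 SCARNA on each of the 4 arrays; points are RNAs, thick lines their medians, and boxes show all 13039 genes (median, quartiles, whiskers at the 5th and 95th percentiles). Members sit low in the gene range on both TIA1 RIP arrays, just below its median on total RNA replicate 1 and above its median on replicate 2; a scaling to E1A spike-ins turns the sign of the member ratio, to a median of 0.99.

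Compared with each total RNA array in turn, the members lay below the median gene both times. Against total RNA replicate 1 their median, relative to the median gene of each pair of arrays, was −2.77, and against replicate 2 it was −4.53. Over the members, mean TIA1 RIP minus total RNA replicate 1 ran from −5.53 to 1.08, and minus replicate 2 from −8.82 to −0.03. Both comparisons use the same TIA1 RIP arrays. Against replicate 2 alone, 81 members (89.0%) passed at a limma adjusted p under 0.05, against 15.7% of all genes called lower. Among those detected on all 4 arrays, 37 of 41 passed (90.2%), against 19.5% of the genes so detected. Against replicate 1 alone none passed, with a background of 0.0% and a lowest limma adjusted p of 0.290, and 72 members were lower at an unadjusted p under 0.05, as were 756 of 13039 genes. These fits have 1 total RNA array, which is assumed to vary like the TIA1 RIP arrays. The 36 members well above background on neither TIA1 RIP array were kept only through total RNA. They had to lie below replicate 2, so the counts over all 91 members are descriptions.

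SNORA and SCARNA differed little against total RNA replicate 1 and more against replicate 2. The SNORA median, again relative to the median gene, was −2.76 against replicate 1 and −4.28 against replicate 2. The SCARNA median was −2.95 against replicate 1 and −5.75 against replicate 2. Over the 34 SNORA and 7 SCARNA detected on all arrays these medians were −2.35 and −3.36 for SNORA and −2.46 and −4.53 for SCARNA. SCARNA were a median of 3.27 log2 units higher on total RNA replicate 2 than on replicate 1, SNORA 2.08 and all genes 0.38. The lowest detected signal also lay higher on replicate 2, as given above. In the 4 pairs of arrays the SNORA median minus the SCARNA median ran from −0.21 (TIA1 RIP replicate 2 against total RNA replicate 1) to 2.12 (TIA1 RIP replicate 1 against total RNA replicate 2), so that its sign was not the same in all pairs.

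**Figure D2:**
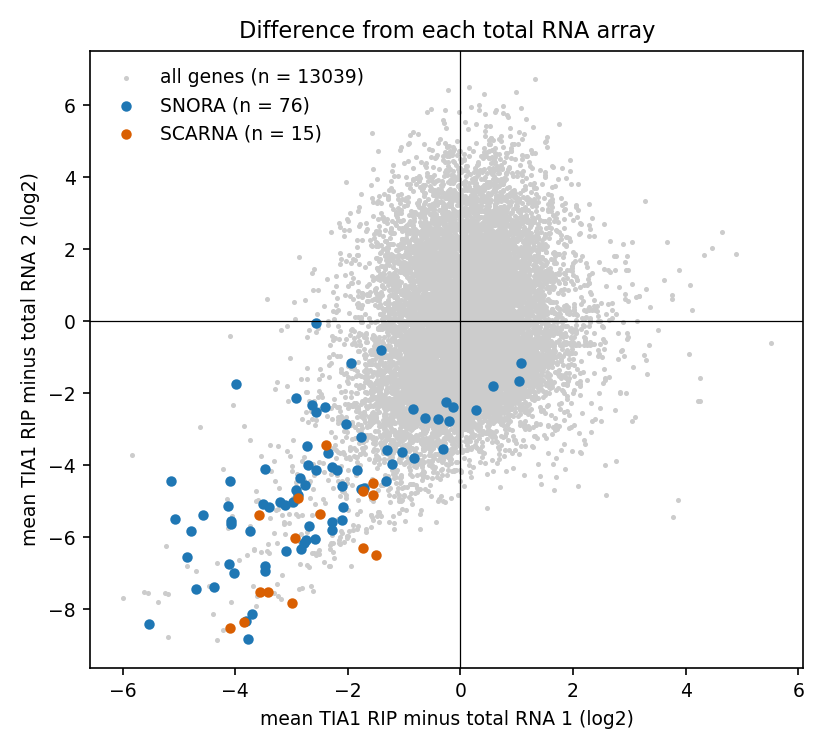
Mean of the TIA1 RIP arrays minus total RNA replicate 1 (x axis) and minus total RNA replicate 2 (y axis), both in log2, for all 13039 genes (grey), 76 SNORA (blue) and 15 SCARNA (orange). Members run from −5.53 to 1.08 on the x axis and from −8.82 to −0.03 on the y axis. SNORA and SCARNA overlap on both axes. Under E1A scaling the median ratio of the members is above 0.

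Low signal in the precipitates limits many of these values to bounds. Of the 91 members, 36 (30 SNORA and 6 SCARNA) were not well above background on either TIA1 RIP array, while this held for 128 of all 13039 genes. For these the fold is given as a lower bound, set by the lowest signal well above background on each TIA1 RIP array or by the probe's own signal where higher. The bounds, here and below, compare group means in the scaling of the report. They ran from 2.76-fold to 47.6-fold higher in total RNA, with a median of 10.4-fold. Each of these members read lower on total RNA replicate 1 than on replicate 2, so against replicate 1 alone the bound is smaller. SCARNA20, for example, with a bound of 11.7-fold, read −2.18 and 2.82. Under E1A scaling, which moved the median ratio of all genes from −0.04 to 4.78, the bounds do not hold. With these members at their bound, the median log2 ratio was −3.13 for all members, −3.00 for SNORA and −3.54 for SCARNA. Over the 41 members detected on all 4 arrays the median was −2.99.

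Of the members with only a bound, SNORA27, in an intron of RPL21, had the largest. It read −4.56 and −4.84 in TIA1 RIP and 0.83 and 3.72 in total RNA, in order of replicate number here and below. Neither TIA1 RIP value was well above background, and both total RNA values were far above them. Its level was at least 47.6-fold higher in total RNA (limma adjusted p = 0.590). RPL21 itself read 4.91 and 4.80 in TIA1 RIP and 6.30 and 6.03 in total RNA, a log2 ratio of −1.31. SNORA12, in CWF19L1, was at least 27.7-fold higher in total RNA (limma adjusted p = 0.658), and SNORA11C, in ZNF157, at least 32.1-fold (limma adjusted p = 0.590).

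Among the SNORA measured on all 4 arrays, the 8 with the lowest ratios were SNORA21, SNORA16A, SNORA50C, SNORA24, SNORA5A, SNORA48, SNORA65 and SNORA11B. SNORA21, at chr17:37009116-37009247 on the minus strand in an intron of RPL23 (GRCh37), read −2.04 and −3.00 in TIA1 RIP and 1.85 and 4.85 in total RNA. SNORA50C read −0.89 and −1.88 against 3.41 and 4.45. In both, the groups lay more than 3 log2 units apart with no overlap. The log2 ratio of SNORA21 was −5.87 ± 1.13 (SE, limma adjusted p = 0.590), and that of SNORA50C was −5.31 ± 0.86 (SE, limma adjusted p = 0.590). The total RNA arrays were 1.04 apart for SNORA50C and 3.0 apart for SNORA21. The other 6 ran from −5.42 (SNORA16A) to −4.19 (SNORA11B), with limma adjusted p from 0.590 to 0.775.

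SNORA57 was the brightest member on every array. It read 3.84 and 3.50 in TIA1 RIP and 4.99 and 8.11 in total RNA. The groups did not overlap, and the gap of 3.12 between the total RNA arrays was wider than that between TIA1 RIP and total RNA replicate 1. Its log2 ratio was −2.88 ± 1.13 (SE, limma adjusted p = 0.775). Its host CSKMT had a ratio of −1.16.

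The 15 SCARNA were each lower on both TIA1 RIP arrays than on both total RNA arrays, as were 21.7% of all genes. Of the 15, 6 were well above background on neither TIA1 RIP array and 2 on 1, and these were kept only through total RNA. All 7 SCARNA detected on all arrays lay apart, against 27.3% of the genes so detected. Among these 7, SCARNA18, SCARNA22 and SCARNA16 had the lowest ratios. SCARNA18 read −3.03 and −2.50 in TIA1 RIP and 1.08 and 5.60 in total RNA, a log2 ratio of −6.11 ± 1.43 (SE, limma adjusted p = 0.590). SCARNA22 read −2.37 and −2.0 against 1.24 and 5.34, a ratio of −5.48 ± 1.34 (SE, limma adjusted p = 0.607). SCARNA16 has 2 probes, with ratios of −5.38 and −5.44, and their mean read −1.78 and −0.81 against 1.69 and 6.54. In all 3 the TIA1 RIP arrays were close together and total RNA replicate 2 stood more than 4 log2 units above replicate 1.

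Bounds only, again against the mean of the total RNA arrays, could be given for 6 SCARNA. SCARNA14 read −5.69 and −5.25 in TIA1 RIP and −1.38 and 3.04 in total RNA, at least 17.5-fold higher in total RNA (limma adjusted p = 0.590). SCARNA11 was at least 12.1-fold higher, SCARNA20 at least 11.7-fold, SCARNA23 at least 9.53-fold, SCARNA8 at least 5.98-fold and SCARNA5 at least 3.40-fold, with limma adjusted p from 0.592 to 0.775. SCARNA13, a tandem H/ACA RNA from SNHG10, had a ratio of −4.47 and SCARNA17 one of −3.89, each detected on 1 TIA1 RIP array.

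The SCARNA were also split by structure, after their values were seen, so no test is given. The classes were taken from general knowledge of these RNAs, and SCARNA9L was placed with SCARNA9 by its name. Of those detected on all arrays, the 3 with H/ACA structure alone (SCARNA16, 18 and 22) had ratios from −6.11 to −5.41. The 4 with C/D structure (SCARNA7, 9 and 9L) or both structures (SCARNA12) ran from −3.22 to −2.91, or to −3.02 without SCARNA9L. Relative to the median gene, the medians of these 2 sets were −3.49 and −1.70 against total RNA replicate 1, and −7.54 and −4.32 against replicate 2. The other 6 H/ACA and 2 C/D or mixed SCARNA (SCARNA17 and 5) were dim on 1 or both TIA1 RIP arrays. The H/ACA RNAs SCARNA8, 11, 14, 20 and 23 were at least 5.98-fold, 12.1-fold, 17.5-fold, 11.7-fold and 9.53-fold higher in total RNA. SCARNA5 was at least 3.40-fold higher. The 4 C/D or mixed RNAs detected on all arrays were 7.52-fold to 9.35-fold higher. With dim values as measured, SCARNA13 (H/ACA) was 22.2-fold and SCARNA17 14.8-fold higher, each detected on 1 TIA1 RIP array. Lower bounds cannot tell whether the dim H/ACA RNAs stand clear of the C/D and mixed RNAs. The longest sequences are in the C/D and mixed set, up to 353 bases, and a part of length or probe in this order was not tested.

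**Figure D3:**
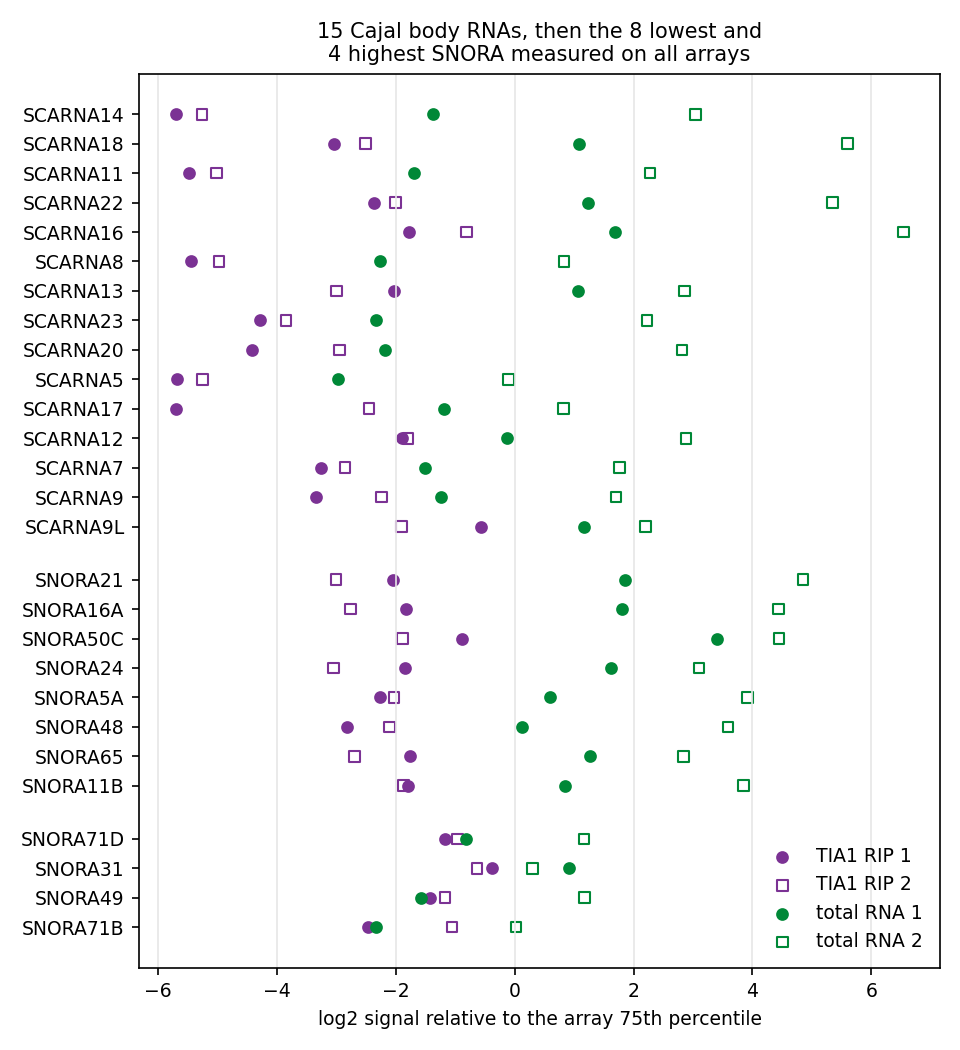
Scaled log2 signal on the 4 arrays for the 15 measured SCARNA, the 8 lowest and the 4 highest SNORA detected on all arrays; purple marks are TIA1 RIP and green marks total RNA, circles replicate 1 and squares replicate 2. Groups are apart, with TIA1 RIP lower, for every SCARNA and for the 8 lowest SNORA, against 21.7% of all genes. They overlap for SNORA49 and SNORA71B. Some SCARNA were kept only through total RNA, and the SNORA were picked by their ratio. The sign of most differences turns under E1A scaling.

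The 4 SNORA with the highest ratios among those detected on all arrays were SNORA71B, SNORA49, SNORA31 and SNORA71D. SNORA71B read −2.47 and −1.05 in TIA1 RIP and −2.34 and 0.03 in total RNA, and the groups overlapped. SNORA49, in an intron of EP400, read −1.43 and −1.17 against −1.57 and 1.18, and the groups overlapped as well. SNORA31, the 1 member placed over an exon, of TPT1 (chr13:45910449-45910582, minus strand), read −0.39 and −0.63 against 0.91 and 0.30, with no overlap. The log2 ratios of these 3 were −0.61, −1.10 and −1.11 (limma adjusted p from 0.775 to 0.892).

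All 5 SNORA71 copies were in the upper part of the range, from −1.66 for SNORA71C to −0.32 for SNORA71E. SNORA71D read −1.17 and −0.96 in TIA1 RIP and −0.81 and 1.16 in total RNA, and SNORA71C read −2.54 and −1.96 against −1.63 and 0.44. For each, TIA1 RIP lay close to total RNA replicate 1 and below replicate 2. Relative to the median gene the 5 had a median of −0.19 against replicate 1 and −1.94 against replicate 2. The copies placed on the genome share 82.4% to 85.8% of their bases, so a probe may read more than 1 of them. Groups overlapped for 8 members, SNORA8, SNORA11, SNORA47, SNORA49, SNORA60, SNORA71A, SNORA71B and SNORA71E. SNORA47 was detected on the TIA1 RIP arrays but not on the total RNA arrays.

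Members cut from 1 host transcript did not share 1 ratio. The 6 members in introns of TAF1D included SNORA32, with a ratio of −4.64 and detected on 1 TIA1 RIP array, and SNORA8, with −1.30. SNORA25 and SNORA1, not well above background on either TIA1 RIP array, were at least 6.36-fold and 8.75-fold higher in total RNA. SNORA8 read −1.01 and −1.49 in TIA1 RIP and 1.31 and −1.21 in total RNA. It was thus lower than total RNA replicate 1 and between the TIA1 RIP values on replicate 2. SNORA32 read −3.08 and −4.32 against 0.44 and 1.44, SNORA18 −1.94 and −1.51 against 1.20 and 0.39, and SNORA40 −1.56 and −1.77 against 0.28 and −0.50. SNORA18 and SNORA40, like SNORA8, were lower on total RNA replicate 2 than on replicate 1, as were 9 of the 91 members in all, the others being SNORA10, SNORA17A, SNORA31, SNORA58, SNORA61 and SNORA70. TAF1D read 1.41 and 2.08 in TIA1 RIP and 2.5 and −1.48 in total RNA.

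The 3 members in EIF4A2, a translation initiation factor gene, were all lower in TIA1 RIP. SNORA63, detected on all arrays, had a ratio of −4.12, and SNORA4 and SNORA81, not well above background on either TIA1 RIP array, were at least 23.7-fold and 16.4-fold higher in total RNA. Their host had a ratio of 0.52. In TBRG4, SNORA5A had a ratio of −4.40 and SNORA5B, detected on 1 TIA1 RIP array, one of −4.47. SNORA5C had −1.55, was not well above background on either TIA1 RIP array and was at least 2.90-fold higher in total RNA. SNORA5A and SNORA5B are 89.6% identical, and SNORA5C shares 68.3% and 67.4% of its bases with them.

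Host genes did not follow the RNAs in their introns. For 64 members with a measured host (51 genes), the median member ratio was −3.88 and the median host ratio −0.21, a difference that the E1A scaling leaves as it is. The member was below its host in 63 of 64 cases, the exception being SNORA5C, and the median of member minus host was −3.87. With members not well above background in TIA1 RIP at their bound, 63 were again below their host, and the median difference was −3.10. Over the 26 such members detected on all arrays it was −2.52. Across these 64 members, which share the same 4 arrays and in part a host, Pearson's r between member and host ratio was −0.19. Total RNA replicate 2 minus replicate 1 had a median of −0.73 over the 51 hosts and of 2.29 over the 64 members in them. The 17 measured SNHG genes, noncoding hosts of small nucleolar RNAs, had a median of −0.33.

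**Figure D4:**
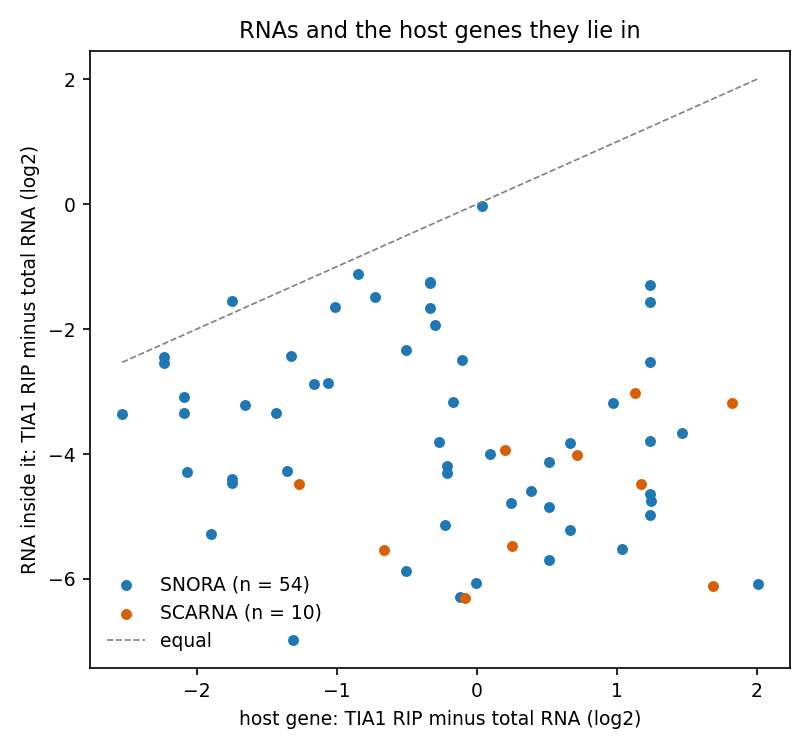
Log2 ratio (TIA1 RIP over total RNA) of 64 members (y axis) against that of the gene each lies in (x axis), SNORA in blue and SCARNA in orange; the dashed line marks equal ratios. 63 of 64 points lie below the line, and hosts spread from −2.53 to 2.01 around 0; E1A scaling shifts both axes upward by the same amount.

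The mRNAs of the proteins that work with these RNAs were not low in the precipitates as a group, and none passed the limma test. Of the H/ACA core, DKC1 (dyskerin, the pseudouridine synthase, and host of SNORA36A) had a ratio of 0.97, NOP10 0.82, GAR1 1.20 and NHP2 −1.81. DKC1 read 4.22 and 2.85 in TIA1 RIP and 3.81 and 1.32 in total RNA, so that it lay within the total RNA range on 1 TIA1 RIP array. Its intronic SNORA36A had a ratio of −3.18 and was at least 7.01-fold higher in total RNA. Of 10 genes for assembly, trafficking and 3′ end trimming 8 were measured, from −1.74 for RUVBL2, an assembly ATPase, to 1.11 for PHAX, an export adaptor, with a median of 0.46. NAF1 and TENT4B were not kept.

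The 6 Cajal body genes ran from −1.43 (GEMIN4) to 2.11 (GEMIN2), with COIL, the body's scaffold protein, at 1.53 and WRAP53, which binds the CAB box, at −0.39. SMN1 had 1.79 and GEMIN5 −1.24. The limma adjusted p of these 3 lists was 0.775 or above. Against total RNA replicate 1 alone, the medians of the 3 lists relative to the median gene were −0.08, −0.45 and 0.22, and against replicate 2 they were 1.92, 1.43 and 1.14.

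Several other noncoding RNAs without a poly(A) tail had values like those of the members. TERC, the telomerase RNA and itself an H/ACA RNA, read 0.88 and 1.1 in TIA1 RIP and 2.43 and 6.37 in total RNA, a ratio of −3.41. RN7SK read 1.69 and 2.34 against 6.35 and 10.87, RMRP −0.82 and −0.28 against 2.68 and 7.08, and RPPH1 −2.17 and −1.67 against 2.48 and 6.23. In each the groups were apart and total RNA replicate 2 stood highest. Their ratios were −6.59, −5.43 and −6.27, and the ratio of RN7SL1 was −3.69. The vault RNAs VTRNA1-2 and VTRNA1-3 had −2.73 and −3.28, and VTRNA1-1 was not kept. MALAT1 (−0.04) and NEAT1 (1.47), long RNAs of the nucleus, did not share the low ratios, but the 2 total RNA arrays disagreed for both. Mean TIA1 RIP minus total RNA replicate 1 was −1.10 for each. Against replicate 2, the dim array, it was 1.01 for MALAT1 and 4.04 for NEAT1. The 58 measured C/D box SNORD RNAs, the group most like the members, had a median of −3.30. Of these, 35 (60.3%) were lower at an unadjusted limma p under 0.05, against 4.02% of all genes. As with the members, many SNORD were kept only through total RNA, 24 being well above background on neither TIA1 RIP array and 11 on 1. No limma adjusted p in these groups was under 0.590.

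**Figure D5:**
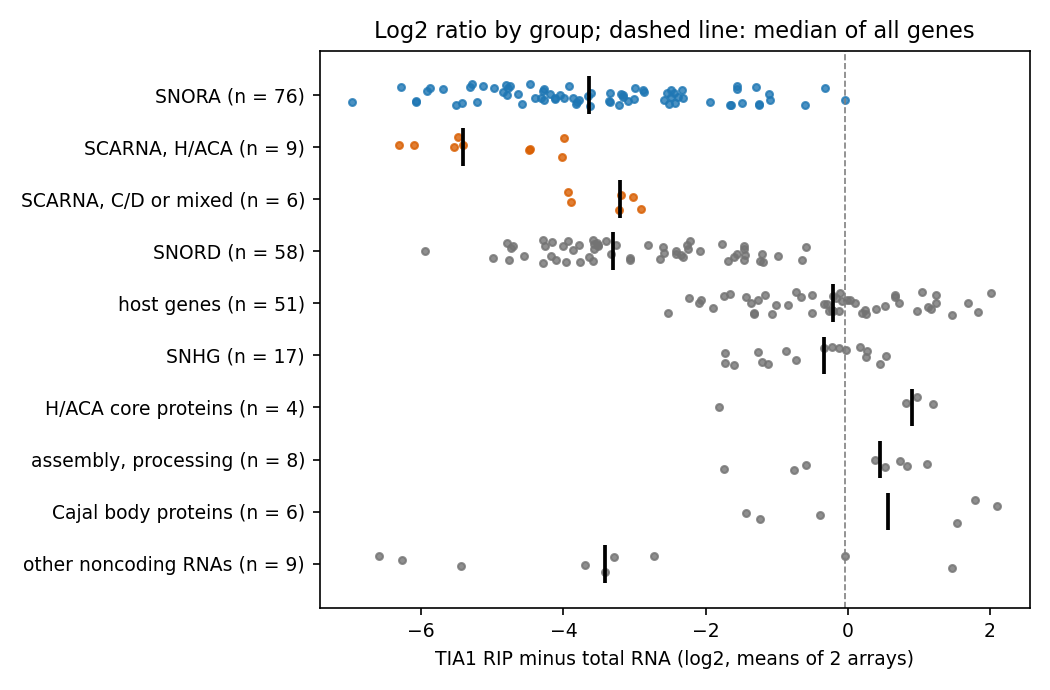
Log2 ratio (TIA1 RIP over total RNA) by group; points are genes, thick lines group medians, and the dashed line is the median of all genes at −0.04. SNORA, both SCARNA sets, SNORD and most other noncoding RNAs lie to the left of the line, and host genes, SNHG and the protein lists lie around it; E1A scaling moves every point and the line to the right together.

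Relative to GAPDH, the reference the study used, 51 members (56.0%) were more than 2.5-fold lower, against 1.62% of all genes. Members dim in TIA1 RIP enter this count at their measured values, so it rests in part on signal near background. Among those detected on all arrays, 14 of 41 members were more than 2.5-fold lower, against 120 of 9280 genes. SNORA47, SNORA71B and SNORA71E (3.30%) were more than 2.5-fold higher, against 72.4% of all genes. GAPDH itself read 6.49 and 6.69 in TIA1 RIP and 7.67 and 9.63 in total RNA, a log2 ratio of −2.06, so most genes lie above it.

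Across the 70 measured members with a sequence, G and C content ranged from 32.5% to 63.8%, and its Pearson's r, with dim values as measured, with the log2 ratio was 0.39 (Spearman's rho 0.39). Length had an r of 0.01. The points share 4 arrays and probes of unlike base composition, and the part of base composition in the ratios was not tested.

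The 32 members not kept were 25 SNORA and 7 SCARNA. Of these, 12 were well above background on no array, 13 on 1 array and 7 on 1 array of each group. The SCARNA were SCARNA1, 2, 3, 4, 6, 10 and 15. The SNORA were SNORA2A, 14A, 14B, 20, 29, 30, 35, 36B, 38B, 46, 52, 54, 55, 56, 59B, 66, 69, 70B, 70C, 70D, 70E, 70F, 70G, 72 and 75. The 6 lettered SNORA70 copies among them are up to 90.4% identical to SNORA70 or to each other where placed, and SNORA70, in RPL10, was measured (−1.68 and −2.41 in TIA1 RIP, 1.93 and −0.31 in total RNA, with no overlap).

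Of the markers of squamous epithelium, the tissue of the cell line, all 8 (KRT5, KRT6A, KRT14, KRT17, TP63, PKP1, DSG3 and SFN) were detected on all 4 arrays. CD3E, PECAM1 and COL1A2 were not well above background on any array, while PTPRC and DES were on all 4.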

How the data were processed

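RNA from TIA1 immunoprecipitates (2 arrays) and total RNA (2 arrays) of KYSE180 cells was measured on one-colour Agilent whole-genome arrays, grouped by their labels. The authors scanned the arrays, and the deposited output of Agilent Feature Extraction 10.7.1.1 holds for each spot a linear fluorescence intensity (background-subtracted processed signal; raw spot and background medians). The deposited files also hold other columns, flags of uneven, deviant, saturated and detected spots, which were used as filters. The authors worked on in GeneSpring; no test is named for this step. The members and lists were chosen with earlier results of these data known.

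Spots flagged uneven or deviant (299 to 382 of 58717 per array) were left out; none was saturated. Log2 processed signal minus the 75th percentile of the array was averaged per probe. A probe was detected when at least 0.5 of its spots were well above background, and kept when detected on both arrays of a group. Of 50599 probes, 34510 were named through RefSeq (GRCh38.p14, names only) or GENCODE v44lift37. Kept probes were averaged per symbol. The groups were compared with limma 3.58.1 (R 4.3.3; lmFit, eBayes), with Benjamini-Hochberg adjustment over all genes at a threshold of 0.05 and tested first on simulated data. With 2 arrays a group, their number limits the precision. Members were placed on GRCh37 where GENCODE and RefSeq gave the same chromosome, a like length and a shared host gene, and all 96 placed sequences matched the genome. Named members were every kept SCARNA, the 8 lowest and 4 highest SNORA detected on all arrays, every member passing in any fit (here counted), list genes, hosts and GAPDH; SNORA named beyond these were chosen after their values were seen. Identity is of global alignments (Biopython). Alternatives were other background correction, scaling, filters, probe choice, floor, a replicate block and each array left out.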

Additional observations from a re-analysis of the deposited data

How the results depend on the processing

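With 2 arrays a group, the spread of the total RNA arrays and the low signal in TIA1 RIP limit every value. No member passed in the limma fit of the report, and the counts of members called are those that moved: 2, both higher, with E1A spike-in scaling, and 0 to 81 with 1 array left out, the 81 being without total RNA replicate 1 and 0 without each of the others. Leaving out 1 array in turn gave a member median of −4.82 to −2.70 (SNORA −4.57 to −2.69, SCARNA −6.03 to −2.89), the lowest without total RNA replicate 1 and the highest without total RNA replicate 2. It gave a SNORA minus SCARNA median of 0.16 to 1.47 (0.37 with all arrays), 83 to 90 members below the median gene in every pair, 2 to 5 members more than 2.5-fold above GAPDH and 52 to 57 below it.

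E1A scaling reversed the medians, to 0.99 for members, 1.18 for SNORA and 0.80 for SCARNA, with 8344 of 13039 genes called higher. GAPDH scaling gave −1.76 for members and −1.58 for SNORA. Normexp background correction gave −2.40 and −2.31, with 0 members more than 2.5-fold above GAPDH and 33 below. Quantile normalization gave 0 above and 77 below. Restriction to probes detected on all arrays left 41 members, of which 36 were below the median gene in all pairs, 1 was above GAPDH and 14 were below. Without a filter on dim probes 5 of 123 were above. The cause was not tested, except that fewer members are tested under the strict filter. Relative to the median gene, the member median was between −4.53 and −2.26 in every setting run. With 1 array left out, SNORA71B ran from −1.50 (without total RNA replicate 1) to 0.50 (without total RNA replicate 2), and was 0.09 without TIA1 RIP replicate 1; SNORA49 ran from −2.19 to 0.20 and SNORA71E from −1.38 to 0.97 without the same total RNA arrays, and SNORA8 from −2.63 without total RNA replicate 2 to 0.26 without replicate 1. SNORA71E was also 0.25 without a filter on dim probes. SNORA47, at the median gene with all arrays and the settings of the report, was −0.23 with normexp, −0.069 with quantile normalization and −0.86 to 1.01 with 1 array left out. No other of the 48 members named with values changed sign in this measure in the settings run.

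The replicate numbers are shared between the groups by label only, and the deviations of same-numbered arrays from their group means correlated at 0.45. With the replicate number as a replicate block, 66 members passed, all lower, among 299 genes lower and 57 higher of 13039. In that fit limma used 1 pooled spread for all genes (median degrees of freedom 13039, against 7.11 in the fit of the report). A gene's own spread between arrays thus carried no weight, and these counts are not added evidence for single members. No block for slide or scan was run, since all 4 arrays share 1 slide and 1 scan.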
